A study of Mus musculus with 12 samples.

Results

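The libraries labelled NR, described as neuroepithelial cells sorted by GFP, were compared with those labelled NSC, described as neuroepithelial cells not sorted. In the study NR stands for sorted neural rosette cells. NSC stands there for early neural stem cells from a timed neural induction of embryonic stem cells. The study's text gives an induction time for NSC only, so the sort need not be the only difference between the groups. Members were chosen by their titles, 3 libraries of each group, so that 6 of the 12 libraries of the series entered the comparison. The study derived mouse neural cells of several stages from embryonic stem cells, to follow what happens when *Sox1* is switched on in later glial progenitors, the source of the 6 libraries not compared here. Both groups came from embryonic stem cells that carry GFP knocked into 1 copy of *Sox1*, with C57BL/6 given as the strain, and were grown in the same neural culture medium. No label or method gives a dCas9 construct or a guide RNA for either group. The design text states 3 independent samples per group, made on different days, and its RNA was amplified with a SMART-Seq kit for small inputs. In bulk RNA of this kind, fewer cells of a type and less RNA per cell cannot be told apart.

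Neural induction takes pluripotent cells out of a state held by *Pou5f1*, *Nanog* and *Sox2*, through a primed state marked by *Fgf5* and *Otx2*, into neuroepithelium, which turns on *Sox1* and *Pax6* and exchanges the adhesion molecule E-cadherin for N-cadherin. Neural rosettes are radial arrangements of such neuroepithelial cells in culture. Germline genes are expressed at a low level in mouse pluripotent cells and are shut off in somatic tissues by the PRC1.6 complex and by DNA methylation of their promoters.

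In short, the libraries labelled NR held more RNA of pluripotency, two-cell-like, germline and epithelial genes and less RNA of neural genes than those labelled NSC, with smaller and less uniform rises of mesoderm and endoderm genes. *Sox1* (GRCm38, chromosome 8 from 12395295 to 12400126, a single exon), the gene whose reporter the sort is named for, went against the label. It had 50.8, 66.4 and 53.6 CPM (counts scaled by the TMM-normalised library total) in NSC replicates 1 to 3 and 4.53, 20.3 and 19.4 CPM in NR replicates 1 to 3. All 3 libraries labelled NR lay below all 3 labelled NSC, and NR 1 lay lowest. The log2 fold change of NR against NSC was -1.93 (SE 0.47, adjusted p = 0.0154, edgeR quasi-likelihood test, Benjamini-Hochberg adjusted over all genes, 3 libraries against 3). The groups are therefore called by the names of their labels throughout.

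Total counts were 43095688, 29046205 and 31298912 in the libraries labelled NSC and 16707006, 30291431 and 34594885 in those labelled NR, so that NR 1 was the shallowest. A floor of 3 counts stood for 0.0696 to 0.180 CPM, for counting error only. Across genes, which are no independent replicates, the Pearson correlation of log2 levels was 0.983 to 0.995 among the libraries labelled NSC, 0.972 to 0.986 among those labelled NR and 0.895 to 0.948 between the groups. The first principal component separated the groups with 77.7% of the variance, and NR 1 lay farthest out on it. The second, with 12.2%, separated replicate 2 of both groups from the other replicates.

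Of 17383 genes tested, 4710 (27.1%) passed an adjusted p of 0.1 as higher in NR and 4462 (25.7%) as lower, with a median log2 fold change of -0.02 over all of them. The directions were far from even in size. The study called a gene changed by a difference of more than 4-fold with a p under 0.05 and an adjusted p under 0.1, and by this rule 1410 genes (8.11%) were called higher in NR and 22 genes (0.127%) lower. Of the passing genes, 811 were higher by a log2 fold change of more than 3 and none was lower by as much, while 3402 of the lower genes and 2228 of the higher genes changed by a log2 fold change of 1 or less. The count of called lower genes depended on single libraries: it was 78 without NSC 2, 81 without NR 2 and 109 without NR 3. The 3 values of NR lay above the 3 values of NSC in 5155 genes (29.7%) and below them in 4928 (28.3%). These shares are the background for the counts of list members that follow, which give members tested, members that passed and, for most lists, the median log2 fold change. Medians not given there were -0.23 for neural crest, -0.36 for glia, 0.13 for DNA methylation genes and 0.27 for PRC1.6. They were -0.14 for p53 targets, 0.12 for the mitotic cell cycle, 0.13 for immediate early genes and 1.01 for fibroblasts and blood.

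**Figure D1:**
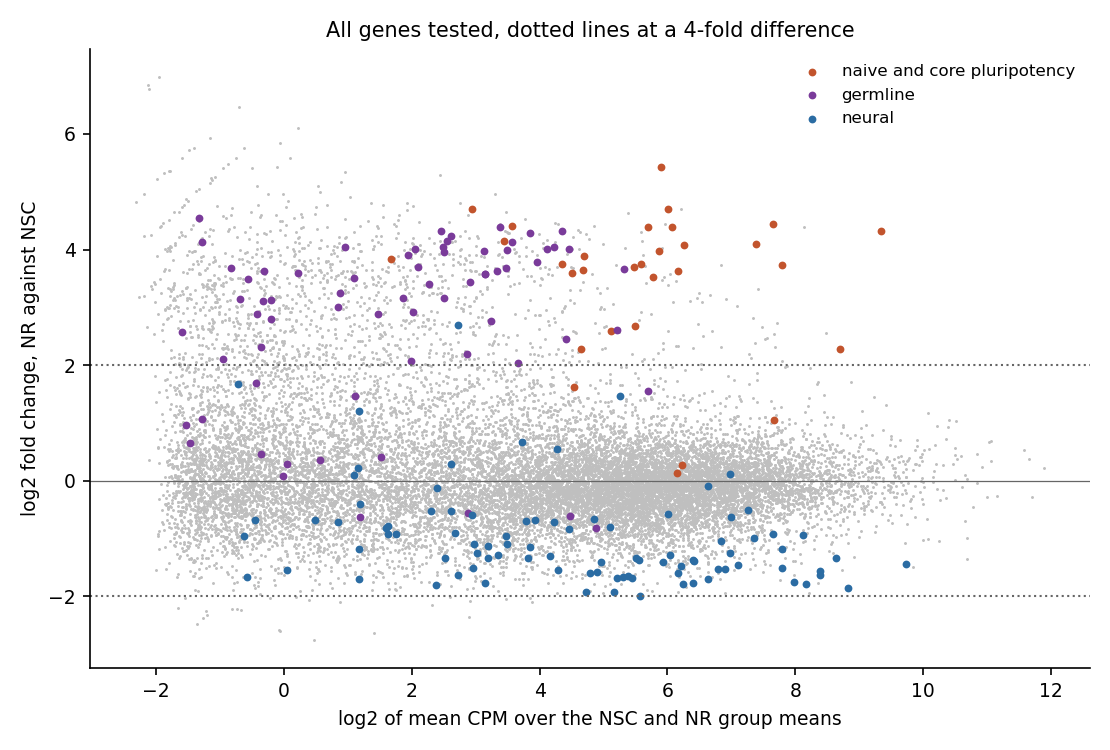
Each point is 1 of the 17383 genes tested, with the log2 of its mean CPM over both groups on the x axis and the log2 fold change of NR against NSC on the y axis; dotted lines mark a 4-fold difference. Naive and core pluripotency genes (orange) and germline genes (purple) lie mostly above the upper line, whereas neural genes (blue) lie mostly below 0 and above the lower line.

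Naive pluripotency genes were higher in NR throughout. All 18 genes of the list rose, 17 of them by more than 4-fold, with no overlap of groups for any of them and a median log2 fold change of 3.86. *Dppa3* (GRCm38, chromosome 6 from 122626410 to 122630272), which protects DNA methylation marks of the early embryo, had 2.74, 2.36 and 3.00 CPM in NSC and 141, 98.2 and 109 CPM in NR. Its NSC replicates lay close together and far below every NR library, and its log2 fold change of 5.42 (SE 0.19, adjusted p = 0.000141, same test) had the smallest adjusted p of the list. *Nanog* (GRCm38, chromosome 6 from 122707489 to 122714633), a homeodomain factor at the centre of the naive network, had 11.3, 4.52 and 9.50 CPM in NSC and 177, 115 and 142 CPM in NR (log2 fold change 4.09, SE 0.35, adjusted p = 0.000622, same test). For *Zfp42*, the zinc finger gene also known as Rex1, the libraries labelled NSC gave 21.6, 8.71 and 22.5 CPM and those labelled NR 501, 298 and 350.0 CPM. In both genes NSC 2 was the lowest library and NR 1 the highest, and the groups were separated by several fold.

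Other members of the naive list behaved alike. *Klf2*, a Krüppel-like factor of the naive state, rose from 35.7, 22.4 and 34.9 CPM to 482, 342 and 409 CPM (log2 fold change 3.73). *Sox15*, a SoxG factor, rose by 4.71 and *Fbxo15*, an F-box gene transcribed under Oct4 and Sox2, by 4.38 on the log2 scale. *Esrrb*, a nuclear receptor that sustains self-renewal, had 3.86, 1.69 and 4.20 CPM in NSC and 68.0, 33.3 and 44.3 CPM in NR (log2 fold change 3.88). Chosen after their values were seen, *Prdm14*, which naive cells and germ cell precursors share, rose by 4.41 and the signal *Fgf4*, which pushes naive cells towards differentiation, by 3.70. *Klf4* showed the smallest rise of the list, from 13.8, 8.54 and 11.8 CPM to 46.8, 18.9 and 40.2 CPM (log2 fold change 1.63, SE 0.34, adjusted p = 0.00897, same test), and was the member that did not reach 4-fold.

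Of the 12 core pluripotency genes, 10 rose and none fell (median log2 fold change 3.58). *Pou5f1*, which encodes Oct4, had 12.5, 4.30 and 9.15 CPM in NSC and 131, 76.1 and 96.5 CPM in NR. Its lowest NR library lay well above its highest NSC library, with a log2 fold change of 3.53 (SE 0.39, adjusted p = 0.00110, same test). *Dppa4* and *Dppa2*, neighbouring genes whose products act on chromatin of early embryonic genes, rose by 4.39 and 3.97, the cofactor gene *Utf1* by 4.09 and the zinc finger gene *Zfp296* by 4.16 on the log2 scale. *Mybl2*, a cell cycle factor that is abundant in embryonic stem cells, already stood at 145, 128 and 153 CPM in NSC and reached 877, 524 and 659 CPM in NR. The 2 members that did not pass, named here after their values were seen, were *Lin28a* and *Trim71*, both RNA-binding genes of the let-7 pathway that stay on in early neural cells. *Lin28a* had 55.0, 106 and 41.8 CPM in NSC and 78.4, 81.6 and 86.9 CPM in NR, and *Trim71* had 69.6, 68.5 and 63.5 CPM and 65.6, 79.5 and 76.8 CPM.

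Genes of the primed state moved less. 10 of 12 rose and 2 fell, with a median log2 fold change of 2.19. *Fgf5*, the classical marker of primed epiblast, had 11.4, 4.34 and 10.9 CPM in NSC and 76.1, 35.8 and 59.1 CPM in NR (log2 fold change 2.68, SE 0.41, adjusted p = 0.00311, same test). The signal *Nodal* rose by 3.00 and its antagonist *Lefty1* by 2.82, and the homeobox gene *Otx2*, which epiblast and forebrain share, by 2.05 on the log2 scale. Both members that fell are also expressed in neural tissue: *Sall2*, a spalt family gene, went from 117, 116 and 99.6 CPM to 29.8, 53.9 and 47.4 CPM, and *Fst*, which encodes the activin antagonist follistatin, from 67.4, 113 and 65.5 CPM to 25.7, 59.7 and 32.0 CPM. The fall of *Fst* (log2 fold change -1.06, adjusted p = 0.0421, same test) did not pass without NSC 2, without NR 1 or without NR 3, and its adjusted p ranged from 0.000384 to 0.138 over 17 alternatives, so that *Sall2* alone fell in those fits.

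The miR-290 cluster, which makes the main microRNAs of mouse embryonic stem cells, was not in these lists. The 6 3′ mature products matched in RefSeq (GRCm38.p6, chromosome 7 from 3218674 to 3220837, plus strand) are printed, which need not be every member of the cluster. Of these, 5 begin their seed, bases 2 to 8 in capitals, with the same 6 letters.
miR-290a-3p: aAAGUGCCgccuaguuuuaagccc
miR-291a-3p: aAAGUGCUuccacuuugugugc
miR-291b-3p: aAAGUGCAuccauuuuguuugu
miR-293-3p: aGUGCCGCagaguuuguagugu
miR-294-3p: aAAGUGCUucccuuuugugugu
miR-295-3p: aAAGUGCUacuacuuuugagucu
miR-291a, miR-294 and miR-295 share the whole seed, miR-290a and miR-291b differ from it in the last base, and miR-293 has another one. The counts lie on the hairpin genes, not on mature miRNAs, since these libraries hold long RNA. Over the 6 hairpin genes together there were 14, 0 and 8 counts in NSC and 143, 152 and 255 counts in NR. Every NR library held more of these counts than all NSC libraries together, and the ratio of the pooled counts per total was 31.7 (95% exact interval 20.7 to 51.0, for counting error only). The 5 hairpin genes above the filter on low counts all passed as higher, the largest adjusted p being 0.00242 (same test). With 0 to 5 counts in each NSC library, they stood above that filter through their NR counts. They belong to a single locus, so their passing is not separate support. *Mir295* was named by the rule for the largest rises, and the other members were added after their values were seen.

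Genes of the two-cell-like state, a rare state of embryonic stem cell cultures that resembles the embryo after its first cleavage, rose in step. All 13 members tested passed as higher (median log2 fold change 3.50), while *Tcstv3* was below the filter and 2 of 16 listed genes were not matched. Their counts in NSC were low, and with at least 10 counts required in every library 4 passed as higher. *Duxf3*, the Dux factor that opens this programme, had 3, 0 and 3 counts in NSC and 29, 43 and 48 counts in NR. Its target *Zscan4c* had 2.67, 0.847 and 4.29 CPM in NSC and 34.6, 29.7 and 24.97 CPM in NR (log2 fold change 3.50, SE 0.49, adjusted p = 0.00223, same test). The lowest NSC library was NSC 2, and the groups did not overlap. *Zscan4f* rose by 3.38, *Zfp352* by 3.78 and the ubiquitin protease gene *Usp17le* by 3.36 on the log2 scale. *Tdpoz3*, with 2, 2 and 1 counts in NSC and 28, 59 and 46 in NR, was among the genes with the fewest counts. Zscan4, Usp17l and Tdpoz genes lie in clusters of near-identical copies, so the counts of a single copy are uncertain.

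Germline genes formed a large group that rose by nearly as much. Over the lists for meiosis, for piRNA and germ plasm and for other germline genes, 79 genes were in the table, 68 were tested, 58 rose and 4 fell, with a median log2 fold change of 3.21. *Ddx4* (GRCm38, chromosome 13 from 112598333 to 112652475), the germ cell RNA helicase also called Vasa, had 2.22, 1.52 and 2.49 CPM in NSC and 39.2, 21.4 and 26.5 CPM in NR (log2 fold change 3.79, SE 0.30, adjusted p = 0.000523, same test). The RNA-binding gene *Dazl* had 1.71, 0.388 and 1.67 CPM in NSC and 31.1, 13.7 and 22.8 CPM in NR. Neither gene overlapped between the groups, and the lowest NR library was NR 2 in both.

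Among 20 genes of the piRNA pathway and germ plasm, 16 rose (median log2 fold change 3.42). *Tdrd12*, a Tudor domain helicase of piRNA biogenesis, rose from 1.57, 1.34 and 1.26 CPM to 34.3, 22.0 and 25.8 CPM, *Piwil2*, a Piwi protein gene, by 3.58 and *Tdrd5* by 3.40 on the log2 scale. *Tdrd7*, which is also expressed outside the germline, fell from 28.2, 24.7 and 27.1 CPM to 18.9, 17.98 and 15.9 CPM (log2 fold change -0.60, adjusted p = 0.00728, same test). Of 29 meiosis genes, 26 rose (median log2 fold change 2.91). *Stra8*, which gates entry into meiosis, had 0.702, 0.600 and 0.600 CPM in NSC and 12.7, 11.5 and 7.38 CPM in NR, so that each NR library held at least 10 times the level of any NSC library. *Sycp3*, a lateral element of the synaptonemal complex, went from 0.842, 0.353 and 0.600 CPM to 10.2, 6.10 and 7.69 CPM. The chromosome axis genes *Hormad1* and *Hormad2* rose by 4.24 and 3.90, *Ccnb1ip1*, a crossover factor, by 4.15, and *Mael*, which acts in transposon silencing, by 3.63 on the log2 scale. The central element gene *Syce2* was present in both groups, at 26.3, 27.3 and 25.1 CPM and 87.7, 69.1 and 75.6 CPM. *Prdm9* and *Msh5* fell (log2 fold changes -0.56 and -0.63), but neither passed without NSC 1 or without NSC 3, which left 2 germline genes that fell, and *Msh5* did not pass without NR 1 or without NR 2 either.

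In the list of other germline genes 16 of 19 rose (median log2 fold change 3.49). *Hsf2bp*, whose product acts in meiotic recombination, had 12.0, 8.04 and 11.4 CPM in NSC and 78.2, 49.2 and 64.3 CPM in NR. *Tuba3a*, a testis tubulin, rose by 4.31, *Tex101*, a germ cell surface gene, by 3.69 and the dipeptidase gene *Dpep3* by 3.49 on the log2 scale. *Ctcfl*, the germline paralogue of CTCF, rested on 1, 0 and 2 counts in NSC and 12, 23 and 29 counts in NR. *Tdrkh*, a Tudor gene with wider expression, fell from 38.5, 34.8 and 39.1 CPM to 17.1, 24.8 and 22.1 CPM (adjusted p = 0.00585, same test). When at least 10 counts were required in every library, which left fewer of the germline genes to test, 33 of them passed as higher.

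Promoters of germline genes are known for letters that the PRC1.6 complex reads, an E-box bound by MGA and MAX and a site of E2F6. RefSeq promoters of 300 bases (GRCm38.p6, 250 before to 50 after the start site) were found for 69 of the 79 germline genes. The E-box CACGTG, which reads the same on both strands (any overlap allowed), was in 16 of them (23.2%), against 7.24% of all 27025 promoters and 9.83% of the promoters of tested genes. The letters TCCCGC on either strand were in 28 (40.6%), against 20.0% and 35.0%, and both motifs together were in 8 (11.6%), against 2.05% and 3.81%. Promoters were found for 12173 of 17381 symbols tested, so the last shares cover only part of the tested genes. Of the 931 promoters found for genes called higher in NR, 8.06% held the E-box, 20.4% TCCCGC and 2.79% both. Those shares were below the shares of tested genes. TCCCGC was in 66.7% of the meiosis promoters, but in 22.2% for piRNA and germ plasm and 25% for other germline genes. A link of either motif to the rise in NR was not tested. The 3 genes with the smallest p among those with both motifs are shown over the 200 bases before the RefSeq start site, 5′ to 3′ on the strand of the gene, with matches in capitals.
Ddx4, chr13:112652311-112652510, minus strand: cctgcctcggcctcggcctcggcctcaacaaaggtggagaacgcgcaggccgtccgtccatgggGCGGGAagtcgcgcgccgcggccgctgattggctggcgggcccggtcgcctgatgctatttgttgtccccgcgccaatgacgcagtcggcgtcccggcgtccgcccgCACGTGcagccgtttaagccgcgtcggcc
Hormad1, chr3:95559477-95559676, plus strand: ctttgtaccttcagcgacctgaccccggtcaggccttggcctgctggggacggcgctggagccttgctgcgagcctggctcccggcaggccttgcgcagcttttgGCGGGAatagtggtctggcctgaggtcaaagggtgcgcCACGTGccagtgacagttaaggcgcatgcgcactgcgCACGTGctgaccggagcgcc
Sycp3, chr10:88459387-88459586, plus strand: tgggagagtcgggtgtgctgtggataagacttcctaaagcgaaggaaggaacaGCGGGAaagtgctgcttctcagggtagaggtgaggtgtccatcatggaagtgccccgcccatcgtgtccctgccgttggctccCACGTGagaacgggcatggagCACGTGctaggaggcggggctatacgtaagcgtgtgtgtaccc
The E-box began 29 bases before the start site in *Ddx4*, 57 and 20 bases before it in *Hormad1*, and 64 and 43 bases before it in *Sycp3*. The windows of *Dazl*, *Tdrd12* and *Stra8*, which also rose, held neither run of letters, so a match was not shared by all genes that rose.

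Genes of germ cell specification followed the same direction, with 10 of 11 higher and a median log2 fold change of 2.77. *Tfcp2l1*, which rose by 3.59 on the log2 scale, counts in the naive list too. The X-linked homeobox genes *Rhox5*, *Rhox6* and *Rhox9* rose by 4.39, 4.40 and 4.64 on the log2 scale, and *Rhox5* had 30.4, 15.1 and 30.9 CPM in NSC and 702, 358 and 545 CPM in NR. *Tfap2c*, an AP-2 factor of germ cells, trophectoderm and naive cells, had 5.15, 3.85 and 4.89 CPM in NSC and 96.2, 61.7 and 70.9 CPM in NR (log2 fold change 4.03, SE 0.21, adjusted p = 0.000377, same test). *Prdm1*, which encodes Blimp1 and starts the germ cell lineage, changed less, from 9.64, 7.69 and 9.44 CPM to 25.3, 18.1 and 20.9 CPM (log2 fold change 1.26). *Lin28b* fell from 122, 114 and 107 CPM to 32.0, 75.8 and 49.6 CPM.

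**Figure D2:**
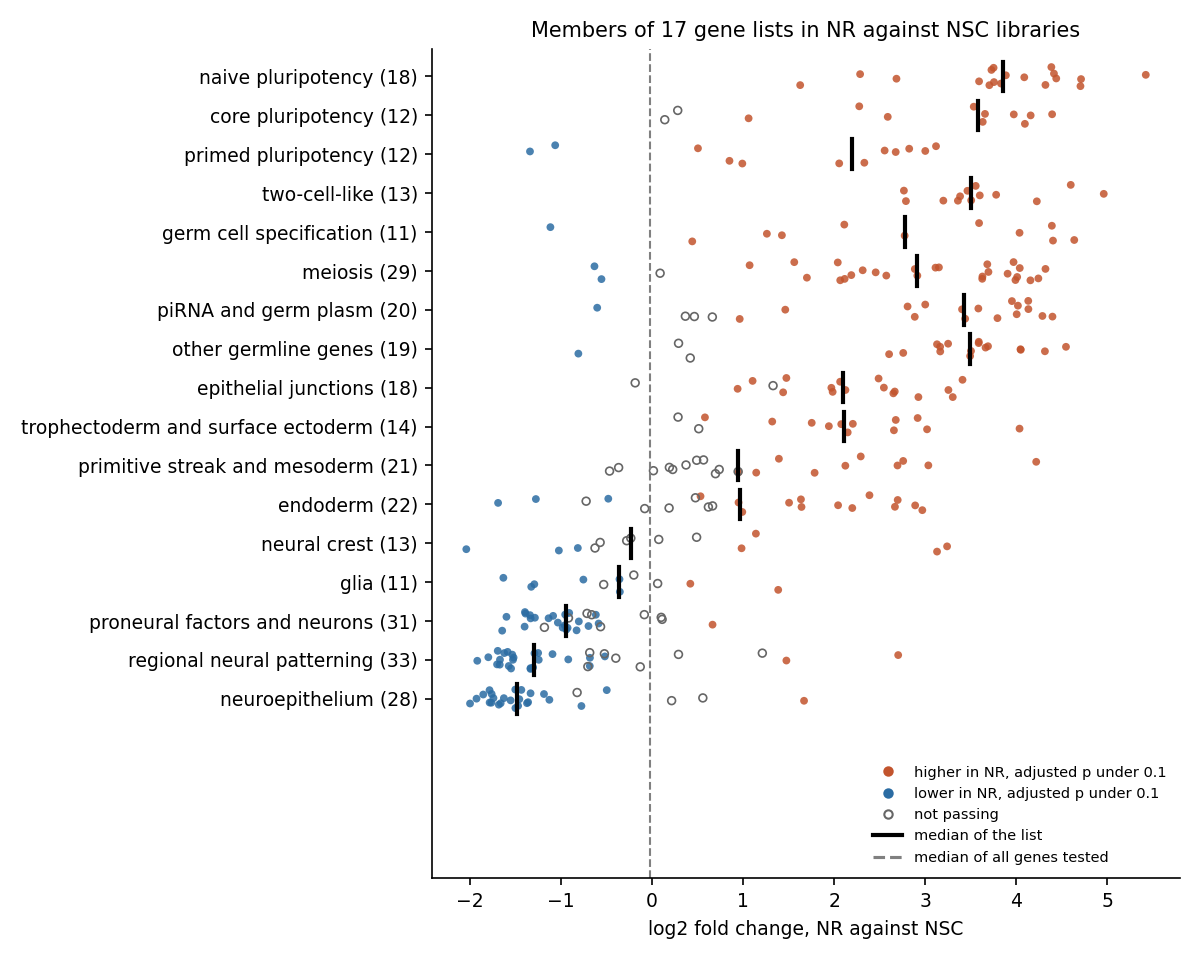
Each point is a gene, with its log2 fold change of NR against NSC on the x axis, 1 row for each of 17 lists and the number of genes tested in parentheses. Medians (black bars) run from 3.86 for naive pluripotency down to -1.49 for neuroepithelium, and the dashed line is the median of all genes tested, -0.02.

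Epithelial junction genes were higher in NR as well. 16 of 18 rose and none fell (median log2 fold change 2.09). *Cdh1*, which encodes E-cadherin, had 62.8, 51.9 and 63.2 CPM in NSC and 348, 206 and 222 CPM in NR (log2 fold change 2.12, SE 0.21, adjusted p = 0.000835, same test). *Cdh2*, which encodes N-cadherin, went the other way, from 524, 641 and 547 CPM to 121, 340.0 and 217 CPM (log2 fold change -1.33, SE 0.33, adjusted p = 0.0160, same test). The groups did not overlap in either cadherin, and NR 1 was the highest library for *Cdh1* and the lowest for *Cdh2*. The tight junction gene *Cldn4* rose from 11.3, 9.31 and 12.7 CPM to 91.9, 77.5 and 84.1 CPM with little spread in either group. The desmosomal genes *Pkp3* and *Jup* rose by 2.65 and 1.44, the polarity gene *Crb3* by 2.66 and the protease inhibitor gene *Spint1* by 2.07 on the log2 scale.

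Trophectoderm and surface ectoderm genes showed 12 higher of 14 tested (median log2 fold change 2.11), and *Tfap2c* counts here too. *Krt8*, a keratin of simple epithelia, had 65.4, 115 and 73.0 CPM in NSC and 286, 548 and 236 CPM in NR, with replicate 2 highest in both groups. The grainyhead genes *Grhl2* and *Grhl3*, which drive epithelial programmes, rose by 3.02 and 2.20, the imprinted factor *Ascl2* by 2.92 and the placental gene *Plac1* by 2.15 on the log2 scale. *Cdx2*, the defining factor of trophectoderm, passed as higher (log2 fold change 2.68, adjusted p = 0.00500, same test) but was under 1 CPM in every library. It had 0.164, 0.0706 and 0.0631 CPM in NSC and 0.423, 0.853 and 0.738 CPM in NR. *Elf5*, *Tpbpa*, *Krt5* and *Krt14* were below the filter on low counts.

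Mesoderm and endoderm genes separated the cultures less. Over both lists 50 genes were in the table, 43 were tested, 23 rose and 3 fell, with a median log2 fold change of 0.95. The number that fell was 6 with the replicate number as a block and 5 without NR 2, but 2 without NSC 1 or without NR 3. In the primitive streak and mesoderm list 10 of 21 rose and none fell, or 2 fell with the block. *T* (GRCm38, chromosome 17 from 8434423 to 8442496), which encodes Brachyury and marks the primitive streak, had 2.11, 3.07 and 1.86 CPM in NSC and 27.1, 81.2 and 21.9 CPM in NR. NR 2 held more than NR 1 and NR 3 together, but all NR libraries lay above all NSC libraries (log2 fold change 4.22, SE 0.56, adjusted p = 0.00195, same test). *Eomes*, a T-box factor of the streak and definitive endoderm, had 2.85, 0.776 and 3.73 CPM in NSC and 22.1, 9.91 and 16.2 CPM in NR. *Gsc*, an organizer gene, rose by 2.12, *Hand1* by 3.03 and the somite factor gene *Tcf15*, which pluripotent cells also express, by 2.29 on the log2 scale. *Mixl1* (at most 1.25 CPM) and *Mesp1* (at most 0.0316 CPM), which follow *T* in nascent mesoderm, were below the filter, as were *Tbx6*, *Msgn1* and *Tbx5*.

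In the endoderm list 13 of 22 rose and 3 fell (median log2 fold change 0.97). *Sox17*, a factor of endoderm precursors, had 2.01, 1.66 and 2.43 CPM in NSC and 17.1, 9.22 and 12.7 CPM in NR (log2 fold change 2.67, SE 0.28, adjusted p = 0.000934, same test). The GATA factors of primitive endoderm rose from low levels, *Gata4* from 4.21, 3.00 and 6.19 CPM to 22.2, 12.7 and 20.4 CPM and *Gata6* from 1.87, 1.23 and 2.08 CPM to 6.405, 3.74 and 4.74 CPM. *Hhex* rose by 1.63, the trypsin inhibitor gene *Spink1* by 2.39 and *Amn*, a partner of cubilin, by 2.97 on the log2 scale. *Foxa2*, a pioneer factor of endoderm and floor plate, had 28.7, 48.1 and 29.2 CPM in NSC and 13.6, 30.5 and 19.8 CPM in NR and did not pass (log2 fold change -0.72, adjusted p = 0.107, same test), although it passed as lower with the replicate block (log2 fold change -0.76, adjusted p = 0.00366, range over 17 alternatives 0.00366 to 0.281). *Cxcr4*, *Col4a1* and *Lama1* fell, which neural cells also express: *Cxcr4* had 20.5, 20.2 and 21.0 CPM in NSC and 3.08, 8.40 and 7.35 CPM in NR. The adjusted p of *Lama1* was 0.0395 (same test) and ranged from 0.000788 to 0.127 over 17 alternatives, so that its fall did not pass in all of them. The late endoderm genes *Afp* and *Ttr* were below the filter.

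Neuroepithelial genes, the markers of the cell type that both labels name, were lower in NR without being absent there. Of 28 genes, all tested, 24 fell and 1 rose (median log2 fold change -1.49), and none was called at 4-fold. *Pax6* (GRCm38, chromosome 2 from 105668900 to 105697364), a paired box factor of the neural tube, had 120.4, 101 and 131 CPM in NSC and 19.5, 41.0 and 41.4 CPM in NR. NR 1 lay well below the other NR libraries, which in turn lay far below NSC (log2 fold change -1.78, SE 0.28, adjusted p = 0.00317, same test). The intermediate filament gene *Nes* had 589, 430.0 and 469 CPM in NSC and 75.5, 244 and 186 CPM in NR (log2 fold change -1.55, SE 0.38, adjusted p = 0.0157, same test). *Sox2*, which pluripotent and neural cells share, moved less, from 193, 159 and 185 CPM to 113, 138 and 129 CPM (log2 fold change -0.50, SE 0.11, adjusted p = 0.0109, same test). Its SoxB1 relative *Sox3* had 119, 68.6 and 139 CPM in NSC and 19.8, 48.7 and 48.8 CPM in NR, with a log2 fold change of -1.47.

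The Notch ligand gene *Dll1* fell from 206, 174 and 223 CPM to 51.0, 81.7 and 86.2 CPM and had the smallest p of the neuroepithelial list. The Notch target *Hes5* went from 144, 84.8 and 160.5 CPM to 19.5, 38.4 and 56.4 CPM, where the lowest NSC library, NSC 2, still lay above the highest NR library, NR 3. *Pou3f3*, a POU factor, fell by 2.00, *Prom1*, an apical membrane gene, by 1.19, *Sfrp1*, a Wnt antagonist, by 1.44 and the LIM homeobox gene *Lhx2* by 1.76 on the log2 scale. *Rax*, of the eye field, was the member that rose, at up to 1.09 CPM in NR, and 2 members rose with the replicate block. These genes stayed detectable in NR: *Pax6*, *Nes*, *Sox2*, *Sox3* and *Hes5* each exceeded 19 CPM in all 3 libraries.

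Proneural and neuronal genes fell by less. 22 of 31 passed as lower and 1 as higher (median log2 fold change -0.94). The proneural factor gene *Neurog2* had 41.8, 35.9 and 47.7 CPM in NSC and 7.13, 16.5 and 17.3 CPM in NR (log2 fold change -1.60). NR 1 was the lowest library, and the groups did not overlap. The later factors *Neurod4* and *Neurod1* fell by 1.40 and 0.96, and the RNA-binding gene *Elavl2* by 0.80 on the log2 scale. Among genes of young neurons, *Tubb3* had 274, 240.2 and 273 CPM in NSC and 99.3, 145 and 169 CPM in NR, *Crmp1* fell by 0.94, and *Dcx* fell by 1.40 with overlapping groups, since NSC 2 (23.3 CPM) lay below NR 3 (25.6 CPM). *Chga*, a granin of secretory vesicles, rose by 0.66.

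Genes that give neural tissue its regional identity were mostly lower in NR. 24 of 33 passed as lower and 2 as higher (median log2 fold change -1.29). The hindbrain genes *Hoxb4* and *Hoxa3* fell by 1.25 and 1.09, *Gbx2*, of the anterior hindbrain, by 1.29, and *Irx5* from 175, 174 and 181 CPM to 36.0, 82.3 and 65.4 CPM. *Dbx1*, of the intermediate neural tube, had 110.3, 97.0 and 114 CPM in NSC and 20.4, 40.2 and 46.1 CPM in NR (log2 fold change -1.59, SE 0.27, adjusted p = 0.00445, same test). The roof plate gene *Lmx1a* rose, from 1.59, 1.69 and 1.99 CPM to 6.77, 21.0 and 6.47 CPM, and so did *Cyp26a1*, a retinoic acid degrading enzyme, from 21.0, 15.7 and 24.1 CPM to 64.4, 55.5 and 49.5 CPM. As with *T*, NR 2 held more *Lmx1a* than NR 1 and NR 3 together. Of genes chosen after their values were seen, the dorsal genes *Pax3* and *Pax7* fell by 1.92 and 1.80 and the ventral genes *Nkx6-1*, *Olig2* and *Nkx2-2* by 1.52, 1.53 and 1.31 on the log2 scale.

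Neural crest genes did not move one way, with 4 of 13 higher and 3 lower, or 5 lower without NR 2. The number higher was 3 without NSC 1, NSC 2, NSC 3, NR 1 or NR 3. The number lower was 2 without NSC 1, NSC 3 or NR 3. *Snai2*, among the 4 that rose, had overlapping groups and an adjusted p of 0.0962 (same test). *Foxd3*, which is also a factor of pluripotent cells, rose from 1.96, 0.600 and 2.27 CPM to 20.7, 8.79 and 16.9 CPM, and *Erbb3*, a neuregulin receptor gene, from 4.51, 3.35 and 5.81 CPM to 48.5, 33.5 and 38 CPM. *Snai1* rose by 1.14 on the log2 scale, whereas *Tfap2b* fell from 18.6, 18.3 and 17.3 CPM to 1.15, 6.86 and 4.85 CPM and *Phox2a* fell by 1.02. *Sox10*, the defining factor of migrating crest, was at or under 0.624 CPM in every library. Of 11 glial genes 6 passed as lower, *Sox8* (-1.63) and the glutamate transporter gene *Slc1a2* (-1.33) among them, and 2 as higher, *Aldh1l1* (1.39) and *Aldoc* (0.42). *Aldoc* did not pass without any 1 of the 6 libraries. The astrocyte gene *Gfap* was below the filter, with at most 0.227 CPM.

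**Figure D3:**
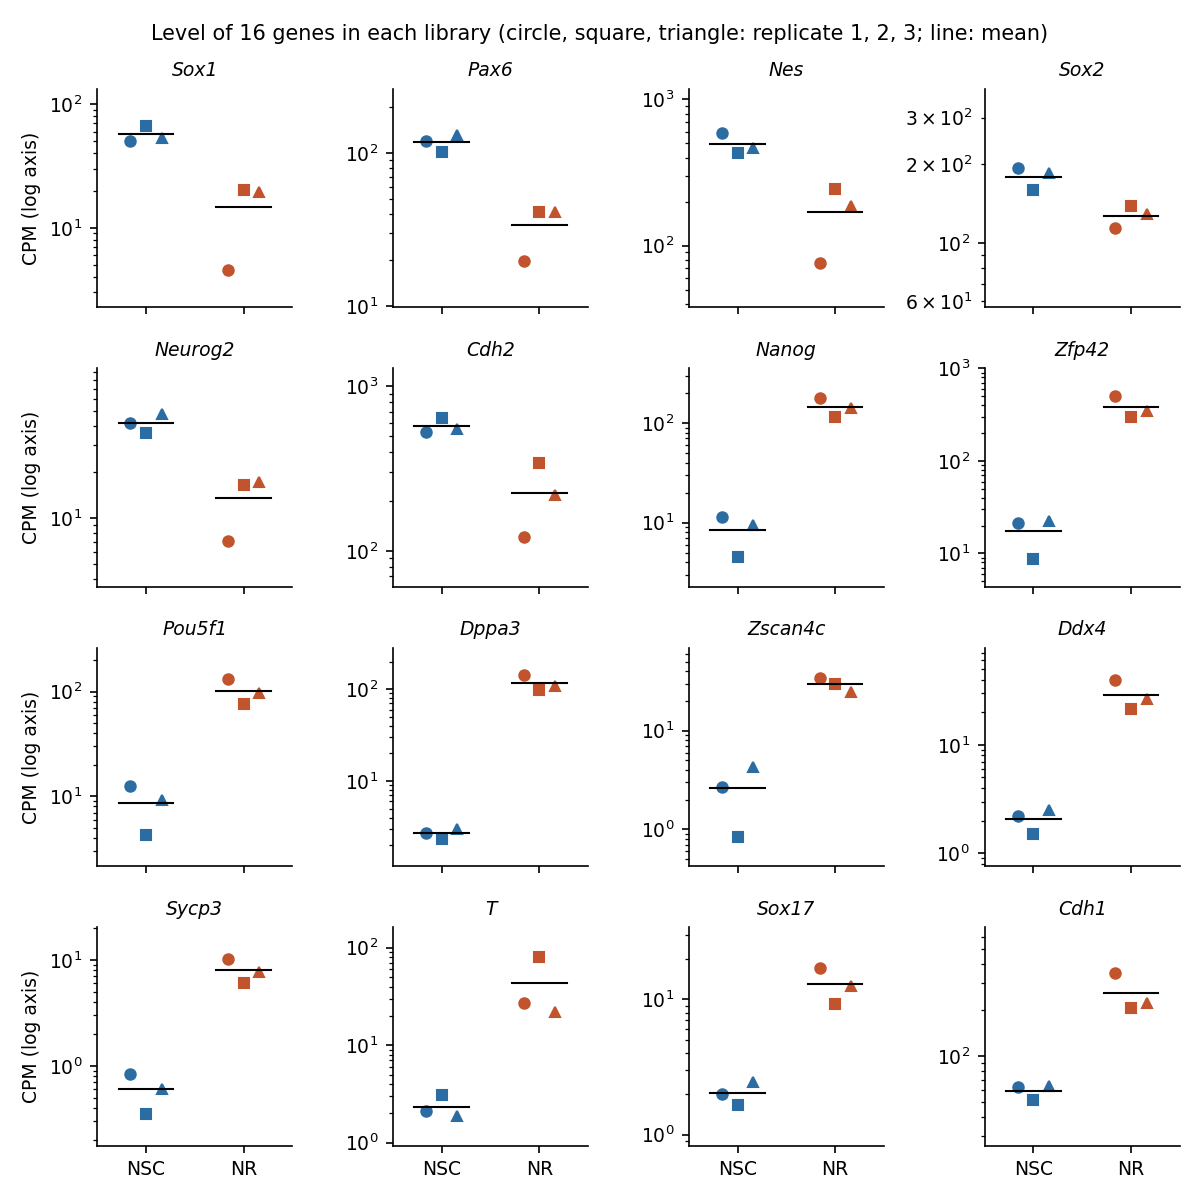
Level of 16 genes in CPM on a log axis for the 3 NSC (blue) and 3 NR (orange) libraries, with symbols for replicates 1 to 3 and a line at each group's mean. The groups do not overlap in any of the 16 genes: the first 6, of the neural state, lie lower in NR and the other 10 lie higher.

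Genes that write and erase DNA methylation moved both ways. Of 16 genes 7 rose and 5 fell, or 3 fell without NSC 1, 3 without NSC 3, 2 without NR 3 and 3 with upper-quartile scaling. *Dnmt3l*, the cofactor of de novo methylation in germ cells and early embryos, had 7.70, 2.68 and 7.96 CPM in NSC and 122, 63.2 and 92.1 CPM in NR (log2 fold change 3.91, SE 0.44, adjusted p = 0.00112, same test). The de novo enzyme gene *Dnmt3b* rose from 119, 66.9 and 124 CPM to 868, 331 and 619 CPM (log2 fold change 2.55). *Dnmt3b* and *Dnmt3a* count in the primed list too. *Tet1*, an oxidase of methylated cytosine, rose by 1.40, *Zfp57*, which guards imprints, by 1.49 and the chromatin remodeler gene *Hells* by 0.98 on the log2 scale. *Tet3* fell from 79.4, 43.5 and 57.1 CPM to 18.3, 35.2 and 29.5 CPM and *Tdg*, which excises oxidized bases, by 0.41. The maintenance genes *Dnmt1* and *Uhrf1* differed little, with log2 fold changes of -0.28 and -0.29: *Dnmt1* had 515, 439 and 515 CPM in NSC and 416, 411 and 382 CPM in NR. The adjusted p of *Dnmt1* was 0.0463 (same test) and ranged from 0.0102 to 0.173 over 17 alternatives, so that its fall did not pass in all of them.

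Of 11 genes for subunits and partners of PRC1.6, 5 rose and 3 fell, none by more than 4-fold. *E2f6*, which binds DNA for the complex, had 128, 157 and 129 CPM in NSC and 72.7, 111 and 87.1 CPM in NR (log2 fold change -0.61, adjusted p = 0.0226, same test). *L3mbtl2* and *Pcgf6*, both specific to this complex, rose by 0.87 and 0.60, and *Hdac1* by 0.53, while the heterochromatin protein gene *Cbx3* and the ubiquitin ligase gene *Rnf2* fell by 0.46 and 0.37 on the log2 scale.

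Genes of growth and stress programmes differed by less than 2-fold in the main fit. Among 20 genes of the mitotic cell cycle 8 rose (40%) and 7 fell (35%), against 27.1% and 25.7% of all genes tested. Their log2 fold changes ran from -0.94, for *Ccnd2*, a D cyclin of neural progenitors, to 0.57, for *Ccne1*. *Ccne1* encodes a cyclin of the start of S phase that is high in embryonic stem cells. Without NSC 1 the counts were 3 and 4, and without NSC 3 they were 5 and 4. Of 16 p53 targets 1 rose (*Bax*) and 2 fell (*Aen* and *Ccng1*), or 2 and 5 with the replicate block. Single libraries set these p53 counts: the number higher was 0 without NSC 1, NSC 3, NR 1 or NR 3 and 5 without NSC 2, and the number lower was 1 without NSC 2, 0 without NR 1 or NR 3 and 4 without NR 2. Of 14 immediate early genes, which respond to handling of cells, *Fos*, *Egr2*, *Fosb* and *Egr1* fell and *Myc* rose. The number higher was 3 with the block, 0 without NSC 1 or NSC 3, 2 without NSC 2 and 4 without NR 2, and it moved with the scaling, at 4 higher and 3 lower with upper-quartile scaling and 5 higher and 5 lower in a fit of all 12 libraries.

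Genes of other cell types were counted as a check of the gate. In the list for fibroblasts and blood 5 of 12 genes rose, or 10 with the replicate block and 3 without NSC 1. *Pecam1*, an endothelial gene that mouse embryonic stem cells also express, had 5.89, 1.94 and 5.87 CPM in NSC and 119.5, 66.9 and 87.0 CPM in NR. The haemoglobin genes *Hbb-bs*, *Hbb-bh1* and *Hba-x* and the leukocyte gene *Ptprc* were at or under 0.363 CPM. The fibroblast genes, named here after their values were seen, moved with the replicate number: *Col1a1* had 1133, 389 and 1118 CPM in NSC and 2929, 420.3 and 2146 CPM in NR, lowest in replicate 2 of both groups and higher in NR at each replicate number. Without the block its adjusted p was 0.241 (same test), at a log2 fold change of 1.06. With the block it passed as higher (log2 fold change 0.81, adjusted p = 0.0150). Summed over the list the level was 3749, 976 and 3668 CPM in NSC and 7709, 1520 and 5294 CPM in NR. Its part in the differences between the groups was not tested.

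**Figure D4:**
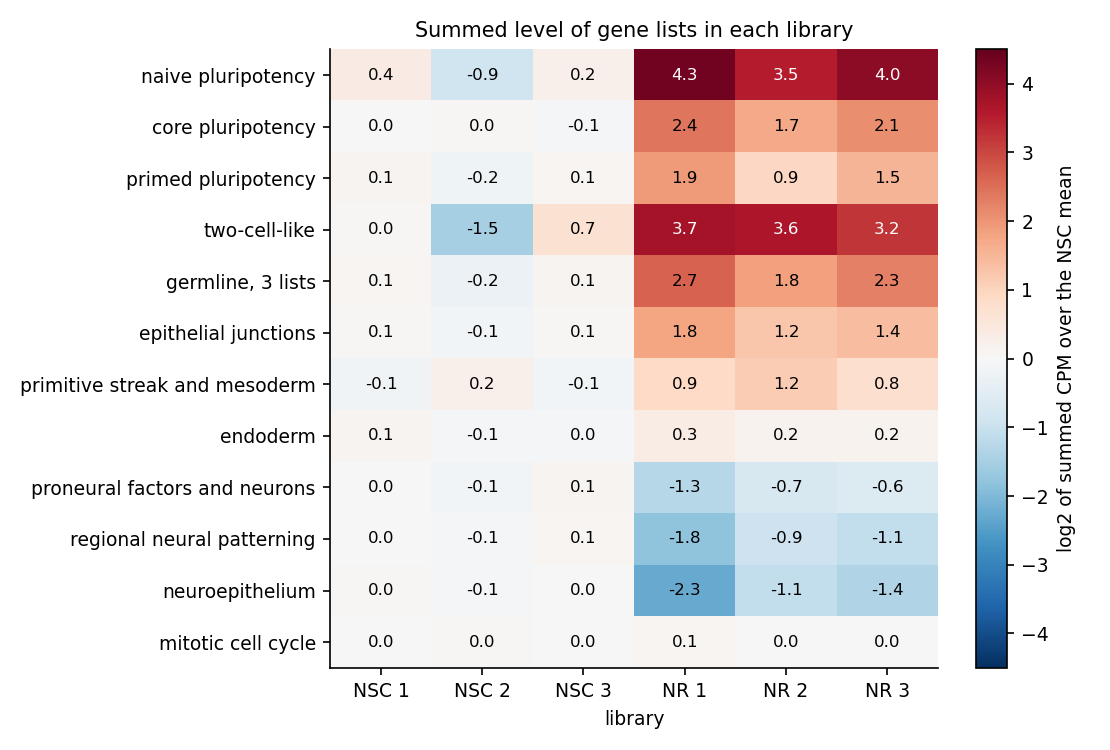
Log2 of the summed CPM of each list relative to the mean of the 3 NSC libraries, for every library. NR 1 is the highest library for each of the first 6 lists and the lowest for the 3 neural lists, and the mitotic cell cycle list stays near 0.

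The libraries labelled NR differed among themselves along the same axis as the groups. Naive pluripotency genes summed to 243, 99.9 and 218 CPM in NSC and 3809, 2188 and 3025 CPM in NR, and neuroepithelial genes to 6404, 6016 and 6295 CPM in NSC and 1304, 2898 and 2428 CPM in NR. NR 1 was the highest of the NR libraries for 35 of 42 pluripotency genes and 57 of 68 germline genes, and the lowest for 70 of 92 neural genes. Two-cell-like genes did not follow this order, as NR 3 was the lowest NR library for all 13 of them. Among the libraries labelled NSC, NSC 2 was the lowest for 35 of the pluripotency genes and 54 of the germline genes, and it was also the lowest for 61 of the 92 neural genes. Naive genes were present in NSC at a median of 7.89%, 2.88% and 8.48% of their mean level in NR, and neuroepithelial genes in NR at a median of 20.4%, 43.5% and 43.8% of their mean level in NSC.

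Against the glial progenitors of the series, scaled together over all 12 libraries and given without a test, naive pluripotency genes summed to 53.3 to 71.6 CPM in the 6 libraries of progenitors with and without *Sox1* activation, to 97.8 to 232 CPM in NSC and to 2151 to 3882 CPM in NR. Germline genes summed to 168 to 240.3 CPM in the progenitors, 149 to 189.5 CPM in NSC and 635 to 1173 CPM in NR. The germline sum of NSC overlapped that of the progenitors, but the sums for meiosis and for other germline genes did not. Meiosis genes summed to 60.0 to 68.8 CPM in NSC and 14.2 to 31.8 CPM in the progenitors. Other germline genes summed to 51.5 to 74.2 CPM in NSC and 109 to 157 CPM in the progenitors. The piRNA and germ plasm genes summed to 37.5 to 47.6 CPM in NSC, between 26.9 to 27.8 CPM in the progenitors without *Sox1* activation and 60.9 to 71.8 CPM in those with it. The sums of NR lay above all of these.

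The largest changes, among called genes with a mean of at least 1 CPM in the higher group, included many genes with few counts in the other. Of the 10 largest rises 7 had at most 3 counts in all NSC libraries together. *Defa30*, of the defensin family, had 0, 0 and 1 counts in NSC and 20, 47 and 32 counts in NR, a ratio of pooled counts per total of 126 (95% exact interval 22.0 to 5007, for counting error only). For *Aldh3a1*, an aldehyde dehydrogenase gene, the counts were 1, 0 and 2 and 50, 54 and 74 (ratio 75.2, interval 25.3 to 368), and for *Pdha2*, the testis copy of a pyruvate dehydrogenase subunit, 0, 1 and 1 and 21, 26 and 38 (ratio 53.9, interval 14.5 to 452). *Krtdap*, *Gm38509*, *Gm32996*, *Efcab10*, *Mir295*, *Dppa3* and *Gjb1* complete the list. Most of the called genes were outside the lists described here: the 23 lists held 445 symbols, among them 141 of the 1410 genes called higher and 1 of the 22 called lower, *Tfap2b*. The largest falls held regulators of the nervous system: *Fezf1*, of olfactory and hypothalamic progenitors, had 2.90, 1.62 and 2.84 CPM in NSC and 0.0604, 0.295 and 0.624 CPM in NR, and *Nr2e1*, an orphan receptor of neural stem cells, 1.99, 0.670 and 2.30 CPM and 0, 0.263 and 0.454 CPM (log2 fold changes -2.75 and -2.59). *Car10*, a carbonic anhydrase relative of neurons, fell by 2.63, the collagenase gene *Mmp13* by 2.60 and the choline transporter-like gene *Slc44a5* by 2.02 on the log2 scale. *A930005G22Rik*, *Tmem132b*, *Gm26709*, *Tfap2b* and *Cd53* were the others.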

How the data were processed

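RNA-seq of 12 libraries was deposited as one table of counts per gene (whole numbers, not normalised), which the authors made before deposit. The submitters' processing notes name STAR 2.6, RSEM 1.1.14 and the build mm10 without roles, so that rounded RSEM estimates cannot be told from direct counts. Whether strand was used is not given in the sources used here, and overlapping, antisense or near-identical genes may share reads. Of 45706 genes, 563 (0.124% of counts) matched no symbol in GENCODE vM21 (GRCm38) and were kept by identifier.

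NR and NSC replicates 1 to 3 were compared by edgeR 4.0.16 (R 4.3.3) with filterByExpr, TMM normalisation and the quasi-likelihood test without a block, p-values being adjusted over 17383 genes by Benjamini-Hochberg. A gene passed at an adjusted p under 0.1. Standard errors are the fold change over the root of F, and the prior count was 0.125. The p-values measure the spread between these libraries. Members and lists were chosen with earlier results of these data known. Named genes were *Sox1*, the 10 largest rises and falls among called genes that did not overlap and had a mean of at least 1 CPM in the higher group, up to 5 members per list and direction with the smallest p, and the defining members of each list.

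Deviations from the group means correlated between same-numbered libraries at 0.233, 0.487 and 0.285 for replicates 1 to 3. The titles give these numbers but no day, so a pairing of the libraries is possible and not established. The number was used as a block in an alternative fit, whereas the p-values of the main test take no account of a pairing. Of pairs with unlike numbers, NSC 1 with NR 3 (0.281) and NSC 3 with NR 1 (0.187) correlated too, so that replicates 1 and 3 are hardly told apart by this check, and the others lay between -0.401 and -0.269. The 6 libraries held 16707006 to 43095688 counts. Intervals and floors cover counting error only. Promoters and miRNAs of RefSeq (GRCm38.p6) were matched by symbol. The fit was tested on simulated data. DESeq2 1.42.0 was run as an alternative beside other scalings, filters, thresholds and thinned libraries. Values of some list members are not reported here.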

Additional observations from a re-analysis of the deposited data

How the results depend on the processing

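For genes named by the rule, direction was kept under all alternatives run, which were not run one by one for the genes named after their values were seen: of their values under an alternative, 3016 kept direction and side of the threshold, 80 no longer passed and 7, all of *Foxa2*, now passed. Called genes higher in NR numbered 1410, against 2190 with no filter on low counts, 566 with at least 10 counts in every library and 2474 at more than 2-fold, and 1332 to 1668 when 1 library was left out. Called genes lower in NR numbered 22, against 14 with upper-quartile scaling, 95 with no filter, 4 with at least 10 counts in every library, 11 with a prior count of 2 and 1056 at more than 2-fold, 17 to 109 when 1 library was left out (78 without NSC 2, 81 without NR 2, 109 without NR 3), and 115 without replicate 2 of both groups, an alternative chosen after seeing the data. Germline genes higher in NR numbered 58, and 33 with at least 10 counts in every library. The causes were not tested, except that stricter filters leave fewer genes to test. Under the replicate block 1426 genes were called higher and 30 lower, 18 naive pluripotency, 58 germline and 23 mesoderm and endoderm genes rose, 24 neuroepithelial genes fell and the log2 fold change of *Sox1* was -2.12. At the 4-fold rule *Sox1* and *Pou3f3* (log2 fold change -2.01) were among the genes that the block added to those called lower. *Cd53* (-1.94) was among those it removed. Of the genes named by the rule, *Foxa2* was the one whose passing at the adjusted p changed. DESeq2 called 1437 genes higher and 19 lower. Genes with few NSC counts have a fold that depth limits.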

Other observations

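Genes on the X chromosome were shifted upwards as a group. Over 372 X-linked genes with a mean of at least 3 on the log2 CPM scale the median log2 fold change of NR against NSC lay 0.155 above the median of all 10431 such genes, whereas the medians of the other chromosomes lay between -0.067 and 0.064 of it. The shift was not tested. By gene type, unprocessed pseudogenes were called higher in 27 of 56 tested, miRNA hairpin genes in 6 of 23, lincRNA genes in 77 of 422 and protein-coding genes in 1180 of 14862, beside a background of 8.11% of all genes tested. Of the 6 miRNA hairpin genes called higher, 5 were those of the miR-290 cluster described above, which is a single locus. Reads of pseudogenes and of their parent genes may be split by the counting.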
